A study of Homo sapiens with 6 samples.

Results

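The immediate early transcription factors of the AP-1 family, together with EGR1, ATF3 and MYC, were followed in LNCaP cells after TCTP knockdown. The members were 10 genes chosen by name: FOS, FOSB, FOSL1, FOSL2, JUN, JUNB, JUND, EGR1, ATF3 and MYC. Every probe annotated to them was taken, which gave 12 of the 48803 probes on the array, for 10 of the 18665 genes with a probe. LNCaP is an androgen-responsive line derived from a prostate cancer lymph node metastasis. Group TCTP siRNA (3 samples) received 100 nM siRNA against TCTP for 72 h, and group Luc siRNA (3 samples) received siRNA against luciferase, which the cells lack, at the same dose and for the same time. According to the methods of the study the medium held no serum at transfection. No untransfected samples were among those analysed. The series calls the 3 samples of a group biological replicates. Separate cultures or transfection days were not stated in what was read here, so that p-values measure the spread between these samples, which may be technical.

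Of the 8 member probes tested between TCTP siRNA and Luc siRNA 0 were called, compared with 1.93% of all probes tested. FOSL1, FOSL2 and EGR1 were detected on too few arrays to be tested. FOS had the largest difference, 1.38-fold higher in TCTP siRNA cells (95% interval 1.02 to 1.88), with a signal near the limit of detection. JUND was 1.19-fold higher, and JUN, JUNB, FOSB, ATF3 and MYC differed by less. FOS and JUND also varied widely between arrays of the same siRNA, and they did so together.

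Immediate early genes are transcribed within minutes of a stimulus such as serum, a growth factor or stress, without new protein synthesis, and most of their transcripts are short-lived. AP-1 is a dimer of basic leucine zipper proteins, in which a JUN protein pairs with another JUN protein or with a FOS protein, and ATF3 can pair with JUN proteins too. EGR1 is a zinc finger factor that is induced by the same signals. MYC, which acts as a dimer with MAX, drives growth and ribosome production, and its gene is an early response gene that remains active in proliferating cells. In prostate epithelium JUND and MYC are both known for links to proliferation and to androgen receptor signalling.

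The control regions of these genes hold short sites that pass on such signals. The cAMP response element (CRE) is bound by CREB and ATF proteins, the CArG box by serum response factor, and an AP-1-like site in the JUN gene by JUN and ATF dimers. RefSeq promoter windows of the build GRCh38.p14 matched 8 of the 10 members by symbol, all but FOSL1 and MYC. The 250 bases before the annotated start were searched on both strands for the CRE TGACGTCA, its core TGACGT, the JUN-type site TGACATCA, the AP-1 site TGANTCA, the CArG box and the EGR1 site GCGNGGGCG. The core is part of the full CRE, so that a CRE counts under both. FOS, JUND and JUN are shown because JUND and JUN had the highest correlations with FOS across the arrays among the kept member probes. That choice was made after the values were seen. EGR1 is shown as the member with CArG boxes in its window. Sites more than 250 bases before the start, in FOS or any other member, were not searched. Capitals mark the matches, and each sequence runs 5′ to 3′ along the strand of its gene.
FOS (chr14:75278578-75278827, plus strand): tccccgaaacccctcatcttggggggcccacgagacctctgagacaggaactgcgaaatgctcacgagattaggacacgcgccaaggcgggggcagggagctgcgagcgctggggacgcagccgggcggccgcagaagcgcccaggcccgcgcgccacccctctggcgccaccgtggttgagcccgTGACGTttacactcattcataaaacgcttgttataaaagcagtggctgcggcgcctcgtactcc
JUND (chr19:18281623-18281872, minus strand): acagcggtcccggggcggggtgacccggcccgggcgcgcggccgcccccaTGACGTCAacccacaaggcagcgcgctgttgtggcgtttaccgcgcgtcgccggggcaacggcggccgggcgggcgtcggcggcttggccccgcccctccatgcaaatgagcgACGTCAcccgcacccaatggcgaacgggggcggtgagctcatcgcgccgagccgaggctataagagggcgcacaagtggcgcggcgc
JUN (chr1:58784048-58784297, minus strand): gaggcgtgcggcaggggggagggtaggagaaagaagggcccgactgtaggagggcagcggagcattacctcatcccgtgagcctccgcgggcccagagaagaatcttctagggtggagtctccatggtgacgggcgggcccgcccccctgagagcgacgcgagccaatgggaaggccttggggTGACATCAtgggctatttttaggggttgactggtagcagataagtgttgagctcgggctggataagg
EGR1 (chr5:138465229-138465478, plus strand): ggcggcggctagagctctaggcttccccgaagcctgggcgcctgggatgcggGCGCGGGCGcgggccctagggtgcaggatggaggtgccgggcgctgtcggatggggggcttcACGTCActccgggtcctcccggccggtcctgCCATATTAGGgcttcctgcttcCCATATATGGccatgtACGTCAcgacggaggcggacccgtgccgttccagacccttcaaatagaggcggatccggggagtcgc

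Positions are counted back from the start. The window of FOS held 1 CRE core, at -64 to -59. JUND was the only member with the full CRE in its window, at -200 to -193, a site found in 1.65% of the 35093 promoter windows. JUND also had a CRE core closer to the start, and EGR1, FOSB and FOSL2 had the core too, which 7.10% of all windows hold. The JUN-type site lay at -67 to -60 in JUN and was also found in the upstream window of ATF3, against 2.37% of all windows. EGR1 had a pair of CArG boxes (1.16% of all windows) and an EGR1 site (8.41%). The AP-1 site, which 6.57% of all windows hold, had no match in the windows of the members. These matches describe the letters of the windows only.

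Signals are given as log2 of the quantile-normalized probe intensity. Probe brightness depends on the probe as well as on the transcript, so that levels were compared between arrays and never between probes. A probe was called detected on an array where BeadStudio gave it a detection p under 0.01, and those that reached this on 3 or more of the 6 arrays entered the limma test. Of the 12 member probes 8 were kept, from 7 of the genes. Of these, 6 were detected on all 6 arrays. FOSL1, FOSL2 and EGR1 had no kept probe. Adjustment (Benjamini-Hochberg) ran over the 13484 kept probes, of which 1.93% were called at an adjusted p under 0.05 (1.13% lower and 0.794% higher in TCTP siRNA cells). Of the 8 member probes 0 were called, and 1 had an unadjusted p under 0.05, which was the case for 14.5% of all kept probes. The groups overlapped on all 8, whereas 19.8% of the kept probes had groups that did not overlap.

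**Figure D1:**
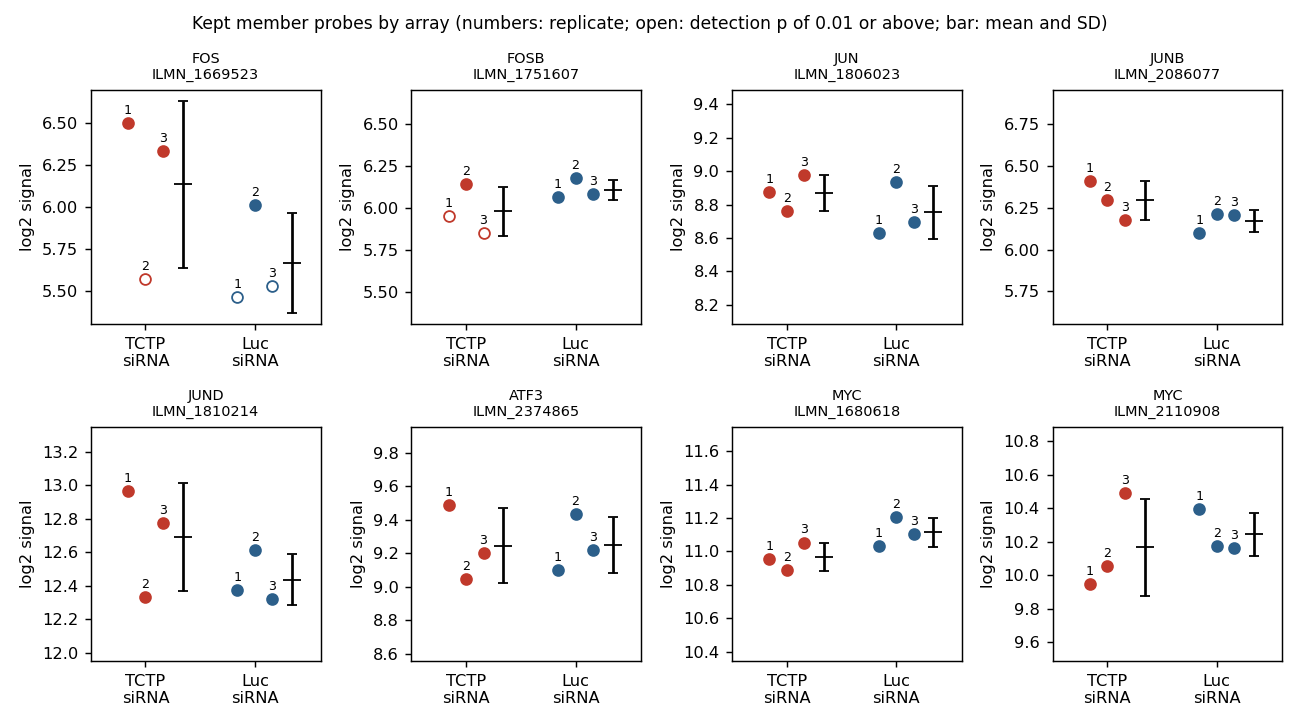
Log2 signal of the 8 kept member probes on each array, with TCTP siRNA on the left and Luc siRNA on the right of each panel. Digits give the replicate, open circles mark arrays with a detection p of 0.01 or above, black bars give the mean and SD of 3 arrays, and all panels span the same height of 1.4 log2 units. The groups overlap in every panel, and FOS and JUND have the widest spread among the arrays of TCTP siRNA.

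The targeted transcript served as the check of the labels. TPT1, which encodes TCTP, fell to 59.6% of the Luc siRNA signal on the probe ILMN_1789614 (95% interval 0.504- to 0.705-fold, adjusted p = 0.00331 from limma). Its brighter probe ILMN_2094718 was at 87.7% (0.745- to 1.03-fold, adjusted p = 0.471). Within a group the arrays correlated at 0.987 to 0.996 over the kept probes, and between 12828 and 13741 probes were detected per array. Of the 8 luminal prostate markers with a probe all 8 were detected on all 6 arrays, while none of the basal, fibroblast or leukocyte markers with a probe was detected on any array. Of the 5 endothelial markers 4 were detected on none, and VWF was detected on all 6, lower in TCTP siRNA cells with no overlap between the groups (log2 change -0.30, adjusted p = 0.194 from limma). The 8 luminal markers had a median log2 change of -0.018, with 5 below 0 and 3 above, and 0 were called (2 had an unadjusted p under 0.05). Their summed linear signal, in which bright probes weigh most, lay between 18075 and 18981 on the arrays of TCTP siRNA and between 20199 and 22282 on those of Luc siRNA. The part of these markers in the values below was not tested.

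FOS encodes the founding FOS protein, which has no dimer of its own and acts with a JUN partner. The probe ILMN_1669523 read 6.50, 5.57 and 6.33 log2 on the arrays of TCTP siRNA and 5.46, 6.01 and 5.53 on those of Luc siRNA. Replicates 1 and 3 of TCTP siRNA were the highest of all 6 arrays, while replicate 2 lay with the lower arrays of Luc siRNA. The means were 6.13 ± 0.50 (SD, n = 3) in TCTP siRNA cells and 5.67 ± 0.30 (SD, n = 3) in Luc siRNA cells. The log2 change was 0.47 (standard error, SE, 0.21, unadjusted p = 0.0392, adjusted p = 0.31 by limma), and 97.7% of the kept probes had a smaller change in size. The probe was detected on 2 arrays of TCTP siRNA and on 1 of Luc siRNA, the fewest that the filter allowed. The deposited intensities behind these values were 86.8, 43.8 and 87.3 in TCTP siRNA cells and 50.1, 65.4 and 44.9 in Luc siRNA cells.

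Whether FOS was called depended on a single array. Without TCTP siRNA replicate 2 the log2 change was 0.75 (95% interval 0.42 to 1.08, adjusted p = 0.0235 from limma), and FOS was the only member called. That fit called more of the 13484 kept probes as well, 190 lower and 158 higher, compared with 153 and 107 with all arrays. Without TCTP siRNA replicate 1 it was 0.28 (adjusted p = 0.699). Leaving out Luc siRNA replicate 2, the highest control array, gave 0.64 (adjusted p = 0.23). FOS was higher in TCTP siRNA cells under each of the 19 alternatives in which its probe was tested. The detection filters, probe summaries, variance models, thresholds and replicate block could not change its log2 change. Only the other alternatives bear on its sign.

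**Figure D2:**
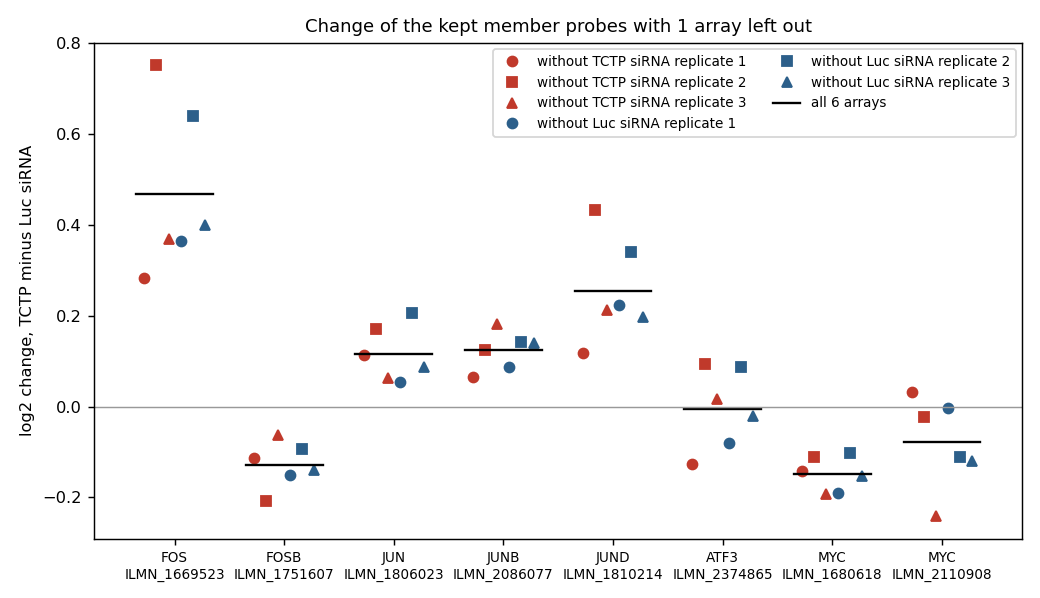
Log2 change (TCTP siRNA minus Luc siRNA) of the 8 kept member probes with each array left out in turn. Red symbols leave out an array of TCTP siRNA and blue symbols an array of Luc siRNA, and black lines give the value with all 6 arrays. FOS reached 0.75 and JUND 0.43 without TCTP siRNA replicate 2, while ATF3 and the MYC probe ILMN_2110908 had values on both sides of 0.

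The other FOS proteins were dim. FOSB, a close relative of FOS that is induced by the same stimuli, read 5.95, 6.14 and 5.85 log2 in TCTP siRNA cells and 6.07, 6.18 and 6.08 in Luc siRNA cells. Replicates 1 and 3 of TCTP siRNA, which were the high arrays of FOS, were the lowest for FOSB. Its log2 change was -0.13 (SE 0.11, adjusted p = 0.649 from limma), with an interval of 0.779- to 1.08-fold. The probe was detected on 1 array of TCTP siRNA and on 3 of Luc siRNA, with detection p-values between 0.00395 and 0.0132 over all arrays, so that this difference in detection came from values on either side of the threshold. FOSL1 (FRA1) and FOSL2 (FRA2), which lack a strong activation domain and are induced later than FOS, were detected on 0 of the 6 arrays. The FOSL1 probe read between 5.30 and 5.40 in TCTP siRNA cells and between 5.28 and 5.39 in Luc siRNA cells. The FOSL2 probe read 5.44, 5.72 and 5.42 in TCTP siRNA cells and 5.56, 5.52 and 5.62 in Luc siRNA cells, with detection p-values of 0.0211 at the lowest. These transcripts were not detectable on these arrays, and no fold is given.

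JUN, the strongest activator among the JUN proteins, read 8.87, 8.76 and 8.98 log2 in TCTP siRNA cells and 8.63, 8.93 and 8.70 in Luc siRNA cells. The control replicate 2 lay above a pair of the arrays of TCTP siRNA, and the groups overlapped. The log2 change was 0.12 (SE 0.11, adjusted p = 0.703 from limma), and its interval ran from 0.915- to 1.28-fold. JUNB, which can restrain JUN, read 6.41, 6.29 and 6.18 in TCTP siRNA cells and 6.10, 6.21 and 6.20 in Luc siRNA cells. Its log2 change was also 0.12 (SE 0.11, adjusted p = 0.649), with an interval of 0.932- to 1.27-fold. JUNB was detected on all 6 arrays, on a dim probe whose spread within groups was larger than that of only 22.8% of the 3258 kept probes within 0.5 log2 units of its brightness.

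JUND, the JUN protein that is present at a steady level in most cells and is the least dependent on stimulation, had the bright probe ILMN_1810214. It read 12.96, 12.33 and 12.77 log2 in TCTP siRNA cells and 12.38, 12.61 and 12.32 in Luc siRNA cells. Replicates 1 and 3 of TCTP siRNA were again the highest arrays, and replicate 2 lay among those of Luc siRNA. The means were 12.69 ± 0.32 (SD, n = 3) in TCTP siRNA cells and 12.44 ± 0.15 (SD, n = 3) in Luc siRNA cells, a log2 change of 0.25 (SE 0.15, adjusted p = 0.472 from limma) with an interval of 0.957- to 1.48-fold. Without TCTP siRNA replicate 2 the log2 change was 0.43 (95% interval 0.17 to 0.69, adjusted p = 0.0833), and it was 0.12 without TCTP siRNA replicate 1. The spread of JUND within groups was larger than that of 98.1% of the 269 kept probes of like brightness. For FOS this share was 99.9% of 2006 probes, while for FOSB, JUN and JUNB it was at most 47.9%. It was 80.7% for ATF3 ILMN_2374865, 91.4% for MYC ILMN_2110908 and 22.7% for MYC ILMN_1680618.

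**Figure D3:**
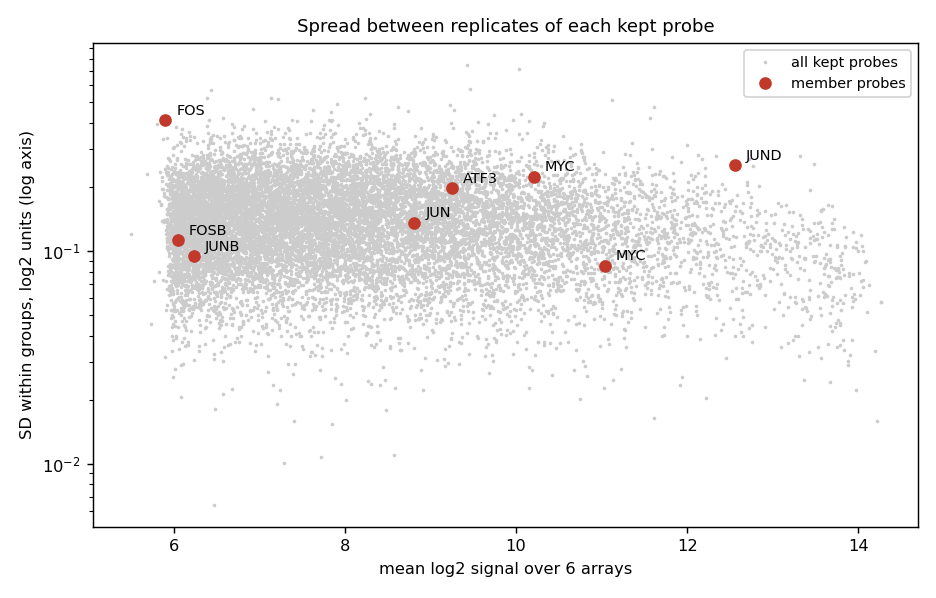
SD within groups (log axis, log2 units) against the mean log2 signal over 6 arrays for the 13484 kept probes (grey) and the 8 member probes (red). FOS, at an SD of 0.41, and JUND, at 0.25, lie at the upper edge of the cloud for their brightness, and the brighter MYC probe, at 0.085, lies in its lower part.

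EGR1, the zinc finger factor, was close to the limit of detection. Its probe ILMN_1762899 read 6.07, 5.73 and 5.57 log2 in TCTP siRNA cells and 5.55, 5.88 and 5.75 in Luc siRNA cells. It was detected on TCTP siRNA replicate 1 only, with a detection p of 0.00659 there and between 0.0132 and 0.0435 on the other arrays. It therefore failed the filter, and no fold is given.

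ATF3, a stress-induced factor that represses many promoters and is induced through ATF4, had a bright and a dim probe that are annotated to different RefSeq transcripts. On the bright probe ILMN_2374865 it read 9.49, 9.05 and 9.20 log2 in TCTP siRNA cells and 9.10, 9.43 and 9.22 in Luc siRNA cells, so that each group held a high array and a low one. The means were 9.25 ± 0.22 (SD, n = 3) in TCTP siRNA cells and 9.25 ± 0.17 (SD, n = 3) in Luc siRNA cells. The log2 change was -0.0050 (SE 0.13, adjusted p = 0.994 from limma), and the interval ran from 0.821- to 1.21-fold. The sign of this value changed with the array left out. The dim probe ILMN_1661109 was detected on 0 of the 6 arrays, with detection p-values between 0.348 and 0.982.

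MYC was measured by a pair of bright probes, both detected on all 6 arrays. On ILMN_1680618 it read 10.95, 10.89 and 11.05 log2 in TCTP siRNA cells and 11.03, 11.20 and 11.11 in Luc siRNA cells. Only TCTP siRNA replicate 3 lay above the lowest control array. The means were 10.97 ± 0.08 (SD, n = 3) in TCTP siRNA cells and 11.11 ± 0.09 (SD, n = 3) in Luc siRNA cells, a log2 change of -0.15 (SE 0.10, adjusted p = 0.567 from limma). The interval ran from 0.773- to 1.05-fold. On ILMN_2110908 MYC read 9.95, 10.06 and 10.49 in TCTP siRNA cells and 10.39, 10.18 and 10.16 in Luc siRNA cells, a log2 change of -0.08 (SE 0.14, adjusted p = 0.844) with an interval of 0.772- to 1.16-fold. The probes ranked the control arrays differently, as replicate 1 was the lowest on the first and the highest on the second. Over the 6 arrays they had a Pearson correlation of 0.34. The second probe had the wider spread within groups, larger than that of 91.4% of 1238 probes of like brightness, against 22.7% of 761 probes for the first.

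**Figure D4:**
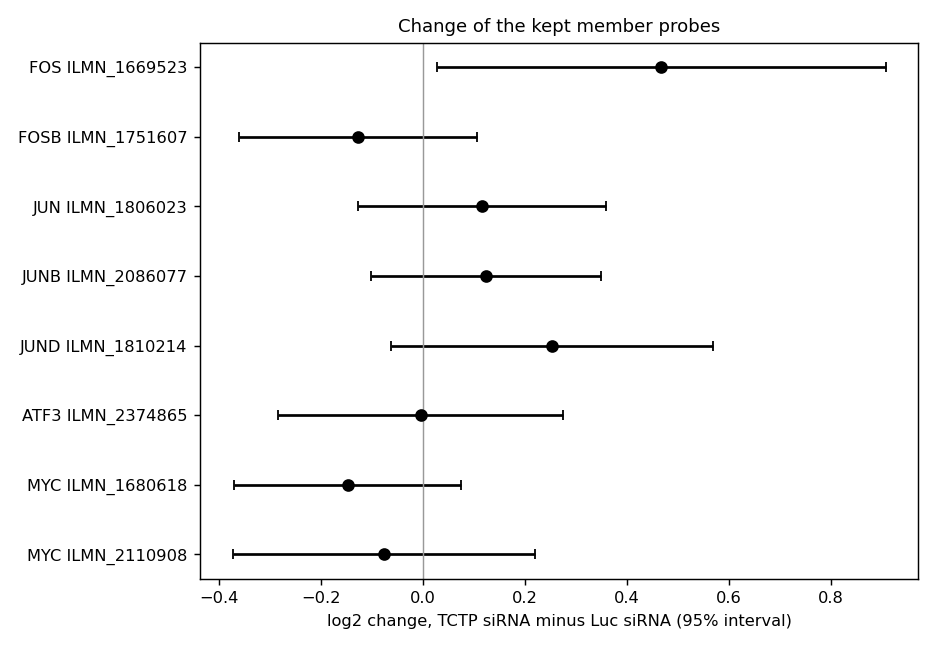
Log2 change (TCTP siRNA minus Luc siRNA) with its 95% interval from limma for the 8 kept member probes (points and bars). The interval of FOS alone lies wholly above 0, before adjustment for the number of probes.

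Over the 8 kept member probes 4 had a change above 0 and 4 below. Their median log2 change was 0.056, and that of all kept probes was 0.0039. The median size of the change, sign aside, was 0.13 log2 units for the members and 0.11 for all kept probes. Of the 95% intervals 7 included 0. The lowest bound of any was -0.37 and the highest 0.91.

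The arrays themselves ordered several members in the same way. FOS and JUND followed each other closely, with a Pearson correlation of 0.98 over the 6 arrays. FOS correlated with JUN at 0.85 and with ATF3 at 0.72, with FOSB at -0.66 and with the MYC probes at 0.0089 and -0.11. These correlations describe 6 arrays that include both siRNAs. The gene most like FOS across the 6 arrays, of the 8967 others tested, was KISS1R, the receptor for kisspeptin, at 0.99. It was followed by PFKP, the platelet form of the glycolytic enzyme phosphofructokinase, JUND, the autophagy regulator DRAM1 and LONRF2, at 0.98 each. With so few arrays high values can arise without any link, and 45 of the 8967 genes had a correlation above 0.95.

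KISS1R read 7.67, 6.58 and 7.42 log2 in TCTP siRNA cells and 6.44, 7.0 and 6.40 in Luc siRNA cells. PFKP read 10.70, 9.65 and 10.30 in TCTP siRNA cells and 9.53, 9.99 and 9.60 in Luc siRNA cells. Both spanned over 1 log2 unit between arrays, and neither was called (log2 changes of 0.61 and 0.51, adjusted p of 0.221 and 0.263 from limma). For both, TCTP siRNA replicates 1 and 3 were the highest arrays, and Luc siRNA replicate 2 was the highest control array.

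**Figure D5:**
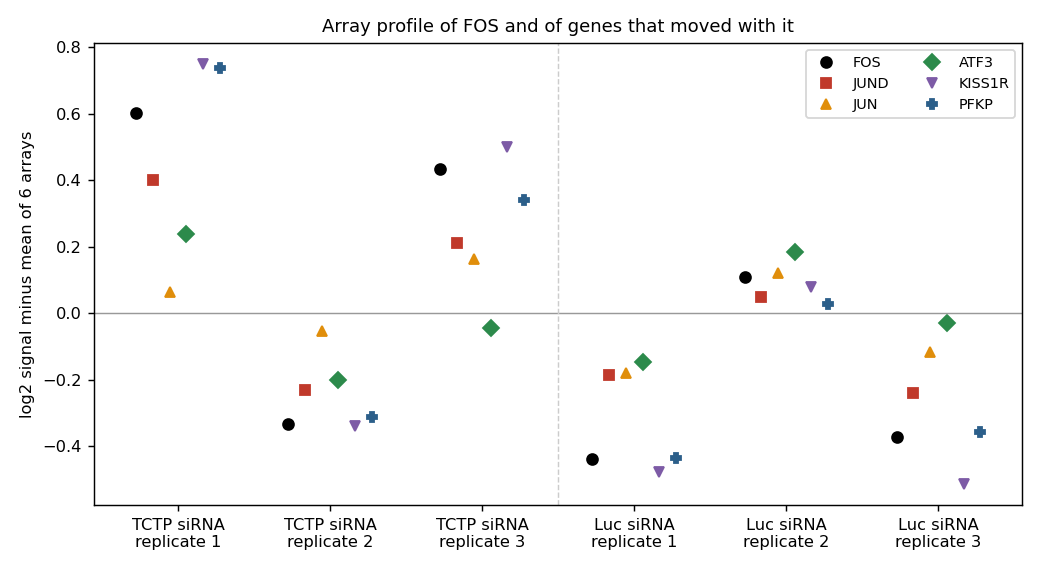
Log2 signal of FOS, JUND, JUN, ATF3, KISS1R and PFKP on each array as the difference from the gene's mean over the 6 arrays, with TCTP siRNA on the left and Luc siRNA on the right. FOS, JUND, KISS1R and PFKP are above their mean on TCTP siRNA replicates 1 and 3 and on Luc siRNA replicate 2, and below it on the other 3 arrays.

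The position of replicate 2 in its group was counted over the members and over other immediate early genes, a count chosen after the values were seen. FOS, JUND, JUN and ATF3, in which TCTP siRNA replicate 2 was low and Luc siRNA replicate 2 high, are among the members counted. The member counts are therefore not independent of that order. Luc siRNA replicate 2 was the highest control array for 7 of the 8 kept member probes, compared with 29.8% of all kept probes. TCTP siRNA replicate 2 was the lowest of its group for 5 of the 8 member probes and for 16 of the 23 other immediate early genes tested, compared with 36.1% of all kept probes. Luc siRNA replicate 2 was the highest control array for 8 of these 23 genes and the lowest for 7, compared with 29.8% and 31.3% of all kept probes. The files name no batch that would separate these arrays.

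The wider pathway was described by 194 genes in 10 lists drawn from general knowledge. Of these 174 had a probe and 115 were tested, each by its brightest kept probe. None was called by limma, compared with 2.23% of the 8968 genes tested (1.34% called lower), and 15 had an unadjusted p under 0.05 (7 higher and 8 lower in TCTP siRNA cells), compared with 15.3% of all genes. When 1 array was left out the count reached 1 in a pair of fits. These calls were MAP2K4 without TCTP siRNA replicate 2 (log2 change 0.53, adjusted p = 0.0285) and HSPA5, an endoplasmic reticulum chaperone, without TCTP siRNA replicate 3 (log2 change -0.51, adjusted p = 0.0362). Of all kept probes 158 were called higher in the first of these fits and 156 lower in the second.

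Among the inputs to these genes, 20 of 29 listed genes of the MAP kinase, SRF and CREB routes were tested, with 11 changes above 0 and 9 below and a median log2 change of 0.014. MAP2K4, a kinase that activates JNK, had 8.35 ± 0.24 log2 (SD, n = 3) in TCTP siRNA cells and 7.96 ± 0.11 (SD, n = 3) in Luc siRNA cells, a log2 change of 0.39 (SE 0.13, adjusted p = 0.158 from limma). The receptor ERBB2 had a log2 change of -0.29 (adjusted p = 0.377). Of 13 feedback genes that such signalling induces 6 were tested, and the smallest p-values were those of SPRED1 (log2 change -0.24, adjusted p = 0.446) and the phosphatase gene DUSP8 (0.24, adjusted p = 0.5).

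Of 38 other immediate early genes 23 were tested, with 11 changes above 0 and 12 below and a median of -0.017. KLF10, a zinc finger factor induced by TGF-beta, had 6.46 ± 0.12 log2 (SD, n = 3) in TCTP siRNA cells and 6.83 ± 0.17 (SD, n = 3) in Luc siRNA cells with no overlap, a log2 change of -0.38 (SE 0.12, adjusted p = 0.129 from limma). ID3, an inhibitor of basic helix-loop-helix factors, had a log2 change of -0.38 as well (adjusted p = 0.158), and was detected on 1 array of TCTP siRNA and on 3 of Luc siRNA. In the EGR family and its NAB corepressors 1 of 6 genes was tested, EGR3, at 0.07 (adjusted p = 0.829).

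Of 16 partner basic leucine zipper factors 7 were tested, with a median log2 change of -0.081. DDIT3 (CHOP), a stress-induced factor, had a log2 change of -0.26 (SE 0.12, adjusted p = 0.354 from limma). CEBPB had 10.74 ± 0.02 log2 (SD, n = 3) in TCTP siRNA cells and 10.91 ± 0.03 (SD, n = 3) in Luc siRNA cells with no overlap, a log2 change of -0.17 (SE 0.10, adjusted p = 0.464). ATF4, which activates the ATF3 gene under amino acid and endoplasmic reticulum stress, had 3 kept probes. It is described because 1 of them was the only one called of the 154 kept probes of all the lists, and so was chosen after its values were seen. On ILMN_1783394 ATF4 read 6.42, 6.55 and 6.67 in TCTP siRNA cells and 6.93, 7.39 and 7.23 in Luc siRNA cells with no overlap, a log2 change of -0.64 (SE 0.13, adjusted p = 0.0194). Its brighter probes ILMN_1672128 and ILMN_2358457 had log2 changes of -0.09 (adjusted p = 0.768) and -0.14 (adjusted p = 0.613). The mean of the 3 probes had a log2 change of -0.29 and was not called (adjusted p = 0.131). The call of ILMN_1783394 was also lost without TCTP siRNA replicate 1 (log2 change -0.57, adjusted p = 0.12), without Luc siRNA replicate 2 (-0.54, adjusted p = 0.114) or 3 (-0.61, adjusted p = 0.0911), with median scaling (-0.62, adjusted p = 0.143) and at an adjusted p under 0.01.

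None of the tested genes that these factors act on was called either, compared with 2.23% of the 8968 genes tested. All 18 genes with a probe on the list of the ATF4 and ATF3 stress response were tested, of which 14 had a change below 0 and 4 above, with a median log2 change of -0.19, compared with 0.0011 over all genes tested. The amino acid transporter SLC7A5 had 7.15 ± 0.15 log2 (SD, n = 3) in TCTP siRNA cells and 7.48 ± 0.12 (SD, n = 3) in Luc siRNA cells, a log2 change of -0.33 (SE 0.11, adjusted p = 0.17 from limma). TRIB3, a pseudokinase induced by ATF4, had a log2 change of -0.30 (SE 0.11, adjusted p = 0.22), with no overlap between the groups for either gene.

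Of 33 MYC targets, mainly genes of ribosome production and growth, 28 were tested, with 15 changes above 0, 13 below and a median of 0.013. CDK4, a kinase of the G1 phase, had a log2 change of 0.25 (SE 0.10, adjusted p = 0.268 from limma), and NOP56, a component of small nucleolar ribonucleoproteins, had -0.24 (SE 0.11, adjusted p = 0.31). Of 12 genes of the MYC network 8 were tested, with a median of 0.012. MLX, a partner of the MXD and MONDO proteins, had a log2 change of -0.32 (adjusted p = 0.211), and MXD4, which competes with MYC for MAX, had 0.26 (adjusted p = 0.248).

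Of 20 AP-1 targets 5 were tested, and 4 of these had a change above 0, with a median log2 change of 0.31. CCND1, the cyclin D1 gene, had 12.19 ± 0.18 log2 (SD, n = 3) in TCTP siRNA cells and 11.78 ± 0.15 (SD, n = 3) in Luc siRNA cells with no overlap, a log2 change of 0.42 (SE 0.12, adjusted p = 0.103 from limma). HBEGF, a ligand of the EGF receptor, had a log2 change of 0.31 (SE 0.12, adjusted p = 0.244). Most of the list, 13 of 18 genes with a probe, was detected on no array. None of the 8 EGR1 targets with a probe was detected on any array.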

How the data were processed

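Gene expression was measured in 6 samples of LNCaP cells on Illumina HumanWG-6 v3 beadchips. The authors imported the scans into BeadStudio, with no version stated, and deposited probe summary intensities on a linear scale, neither normalized nor background-subtracted, with a detection p-value for each probe and array. The authors also deposited intensities normalized by quantiles, which were used as an alternative. The signal over background and the number of arrays limit the precision.

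The intensities were quantile-normalized and log2-transformed (limma 3.58.1, R 4.3.3). Each detection p-value column was matched to its array by rank correlation. Of the 48803 probes 27578 had 1 gene symbol in the platform's annotation, 13 had several and 21212 had none listed. Symbols were updated through RefSeq gene identifiers. Probes that reached a detection p under 0.01 on 3 or more of the 6 arrays were compared between the siRNAs with lmFit and eBayes, adjusted by Benjamini-Hochberg over all 13484 kept probes. SAM and feature subset selection, which the methods name without settings, were not run. Groups came from the sample titles. The fit was run on simulated data with independent normal noise. The changes added there were larger than that of any member probe with all 6 arrays. That run cannot tell how often changes as small as those of the members would be called. Without background subtraction the changes of dim probes are compressed.

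The members, the lists and the tests were chosen with earlier results of these data known. Named in the text are all members, TPT1, from each list up to 4 called genes or, with none called, up to 2 with the smallest p, and the 5 genes most like the member with the smallest p. ATF4, HSPA5 and the call of MAP2K4 without 1 array were named after their values were seen. Alternatives tried were other normalizations and background corrections (normexp with an offset of 50, neqc with an offset of 16), detection filters, probe summaries, variance models and thresholds, the replicate number as a block and each array left out. Promoter windows came from RefSeq (GRCh38.p14), and the array files carry no coordinates. Plots used matplotlib 3.10.9 (Python 3.11.15).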

Additional observations from a re-analysis of the deposited data

How the results depend on the processing

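Over the alternatives tried, 0 member probes were called lower in any, and 1 was called higher without TCTP siRNA replicate 2 (FOS), so that this count ran from 0 to 1 when each array was left out. FOS, JUN, JUNB and JUND had changes above 0, and FOSB and the MYC probe ILMN_1680618 below 0, under every alternative in which they were tested. The detection filters, variance models, thresholds and replicate block could not change these values, so only the other alternatives bear on the sign. Over the alternatives the log2 change ran from 0.055 to 0.21 for JUN, from 0.065 to 0.18 for JUNB, from 0.12 to 0.43 for JUND, from -0.21 to -0.064 for FOSB and from -0.19 to -0.094 for MYC ILMN_1680618. The lowest and highest values came without Luc siRNA replicate 1 and 2 for JUN, without TCTP siRNA replicate 1 and 3 for JUNB, without TCTP siRNA replicate 1 and 2 for JUND, and without TCTP siRNA replicate 2 and 3 for FOSB. The log2 change of FOS ran from 0.28 to 0.75, and it was 0.65 with neqc (adjusted p = 0.342 from limma). The sign of ATF3 ILMN_2374865 turned with median scaling (0.030), without TCTP siRNA replicate 2 (0.094) or 3 (0.017) and without Luc siRNA replicate 2 (0.086), and that of MYC ILMN_2110908 without TCTP siRNA replicate 1 (0.032). With each array left out the log2 change of ATF3 ran from -0.13 to 0.094 and that of MYC ILMN_2110908 from -0.24 to 0.032. The cause was not tested.

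Of all kept probes 153 were lower and 107 higher in TCTP siRNA cells. The counts were 45 lower and 21 higher with median scaling, 85 and 54 with the replicate block, 59 and 32 at an adjusted p under 0.01 and 289 and 232 at an adjusted p under 0.1. Without a detection filter 226 were lower and 162 higher. With each array left out the counts ran from 57 to 190 lower and from 32 to 158 higher, with the highest of both without TCTP siRNA replicate 2. Counts of 57 to 77 lower and 32 to 46 higher came without TCTP siRNA replicate 1 or without any 1 of the Luc siRNA replicates. Genes of the wider pathway called lower or higher ran from 0 to 1. The deviations of TCTP siRNA and Luc siRNA arrays of the same replicate number correlated at -0.079, -0.036 and -0.37. Between arrays of different number the correlations ran from -0.36 to 0.48. The highest was that of TCTP siRNA replicate 2 with Luc siRNA replicate 3. With 3 arrays per group these values cannot decide whether the samples were paired. No member was called with the replicate block. Signals of EGR1, FOSL1, FOSL2 and the dim ATF3 probe lay at or under the detection limit.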

Other observations

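Outside the immediate early genes, the luminal markers TMPRSS2, an androgen-induced serine protease, and the kallikrein KLK2 had log2 changes of -0.42 and -0.36 (adjusted p of 0.0721 and 0.158 from limma) with no overlap between the groups. They had the smallest p-values of the 8 luminal markers, whose median log2 change was -0.018 with a highest of 0.048. VWF, the von Willebrand factor gene, had 8.20 ± 0.02 log2 (SD, n = 3) in TCTP siRNA cells and 8.50 ± 0.14 (SD, n = 3) in Luc siRNA cells.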
